A study of Mus musculus with 8 samples.

Results

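The autophagy genes described here are the genes of a 1-colour array whose symbol belongs to the Atg, Ulk, Wipi, Map1lc3 or Gabarap families, together with Becn1, Sqstm1, Rb1cc1, Pik3c3, Pik3r4, Uvrag, Ambra1, Nbr1 and Tfeb. They were chosen by name, with earlier results of these data known. The rule found 38 of the 18193 genes that had a probe set with a single gene symbol. These 38 genes have 86 of the 45101 probe sets, and each gene was read from the probe set with its highest mean log2 signal. Optn, the remaining name of the rule, was not analysed here because no probe set carried its symbol alone.

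The arrays compared wild-type whole mouse embryos at 2 stages, the 8-cell embryo (embryonic day 2.5, 66 h after the ovulation hormone hCG) and the blastocyst (day 4.5, 120 h), with 4 arrays per stage. All embryos came from B6D2F1 females mated to B6D2F1 males and had been cultured in KSOM medium from the zygote, so the blastocysts are cultured and not flushed embryos. The series title concerns the transcription factor AP-2 gamma, tight junctions and formation of the cavity, and the stages compared are those before and after the cavity forms. Whether the 4 arrays of a stage are separate embryo pools is not stated in the labels, so p-values reflect only how far these samples differ, which may be technical.

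Autophagy encloses cytoplasm in a growing double membrane, the autophagosome, and delivers it to the lysosome. A kinase complex around ULK1 starts the process, a lipid kinase complex around PIK3C3 marks the membrane, ATG9 and ATG2 proteins supply lipid, and enzymes related to those of ubiquitination attach ATG8 proteins such as LC3 to the membrane, where cargo receptors bind them. In the mouse, autophagy is switched on soon after fertilisation, and embryos without maternal and zygotic Atg5 stop developing before implantation.

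In the blastocyst most genes of the ULK kinase group and of membrane supply had a lower signal than in the 8-cell embryo, while the conjugation enzymes were split. Of 38 autophagy genes 33 passed the test (86.8%), beside 71.7% of the 13276 genes tested (limma, Benjamini-Hochberg adjusted p under 0.05). Higher in the blastocyst were 12 (31.6%, beside 37.5% of all genes), and 21 were lower (55.3%, beside 34.2%). A rise of at least 2-fold was found for 5 (13.2%, beside 25.4%), and a fall of at least 2-fold for 15 (39.5%, beside 20.4%). All blastocyst arrays lay above all 8-cell arrays for 11 genes (28.9%, beside 35.3%), and the reverse held for 20 (52.6%, beside 31.5%). The median difference in log2(signal + 16), blastocyst minus 8-cell, was -0.43 for the 38 genes, with a range from -4.415 to 2.91, and 0.02 for all genes tested. These shares describe the list, which was chosen with earlier results of these data known. No test of the list as a whole was made.

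Fold changes below come from the log2(signal + 16) scale, which understates the change of dim genes, and SE is the standard error of the log2 difference. The signal exceeded the array's 40th percentile on all 8 arrays for 37 of the 38 genes, and on 6 for Atg9b. Signals were scaled per array, so a difference is relative to the other signals of the array and is not an amount per embryo. With arrays scaled to the probe sets of bacterial hybridisation spike-ins, which give no amount per embryo either, every log2 difference was 0.354 higher. The median SE over all genes was 0.254, against 0.173 with the deposited scaling. The median of all genes was then 0.37 and that of the autophagy genes -0.08. With this scaling 13 of the 38 autophagy genes were higher and 15 lower, beside 5647 and 2806 of all 13276 genes tested. Of all called genes 66.8% were higher (52.3% with the deposited scaling).

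Arrays of the same stage correlated at 0.977 to 0.981 (8-cell) and 0.982 to 0.988 (blastocyst) over the genes tested, and the array medians lay between 47.1 and 56 signal units. The 3' minus 5' difference of the Actb control probe sets, a sign of how complete the amplified RNA is, was 2.42 ± 0.19 log2 units at the 8-cell stage and 0.82 ± 0.11 at the blastocyst stage (SD, n = 4 arrays). For Gapdh it was 2.32 ± 0.26 and 1.36 ± 0.11. An exact permutation test, two-sided, gave p = 0.0286 for both, which is the minimum over the 70 assignments of the arrays (adjusted p = 0.0286). The part of this 3' bias in the differences below was not tested. Signals of the 8-cell arrays were deposited with at most 1 decimal, which held for 0.297% to 0.375% of the values of each blastocyst array, so handling of the arrays and stage cannot be told apart.

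Of the marker genes of the outer epithelium, the trophectoderm, 5 of 5 were higher in the blastocyst, and their summed signal ran from 2993 to 3487 at the 8-cell stage and from 67334 to 74805 in the blastocyst. All 5 oocyte markers were lower (2555 to 3953, then 201 to 284), with Bmp15 and Oosp1 not above the 40th percentile on any blastocyst array. Primitive endoderm markers were 3 higher and 2 lower (6914 to 10335, then 10812 to 11915), and epiblast markers 3 higher, 1 lower and 1 not passing (11799 to 13963, then 11956 to 15552). Summed signals were 194 to 334, then 183 to 219, for cumulus or granulosa markers. They were 99.6 to 201, then 206 to 263, for fibroblast markers and 134 to 197, then 60.8 to 116, for blood markers. None of these sums exceeded 334 on any array. Of the 6 cumulus or granulosa markers listed 5 were measured, with 1 lower, 1 not passing and 3 not tested. Fibroblast markers were 2 higher, 1 not passing and 2 not tested. Of the 5 blood markers listed 4 were measured, with 1 higher, 1 lower and 2 not tested. Since whole embryos were measured, more or fewer cells of a type cannot be told apart from more or less RNA per cell, and the part of these markers in the differences below was not tested.

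**Figure D1:**
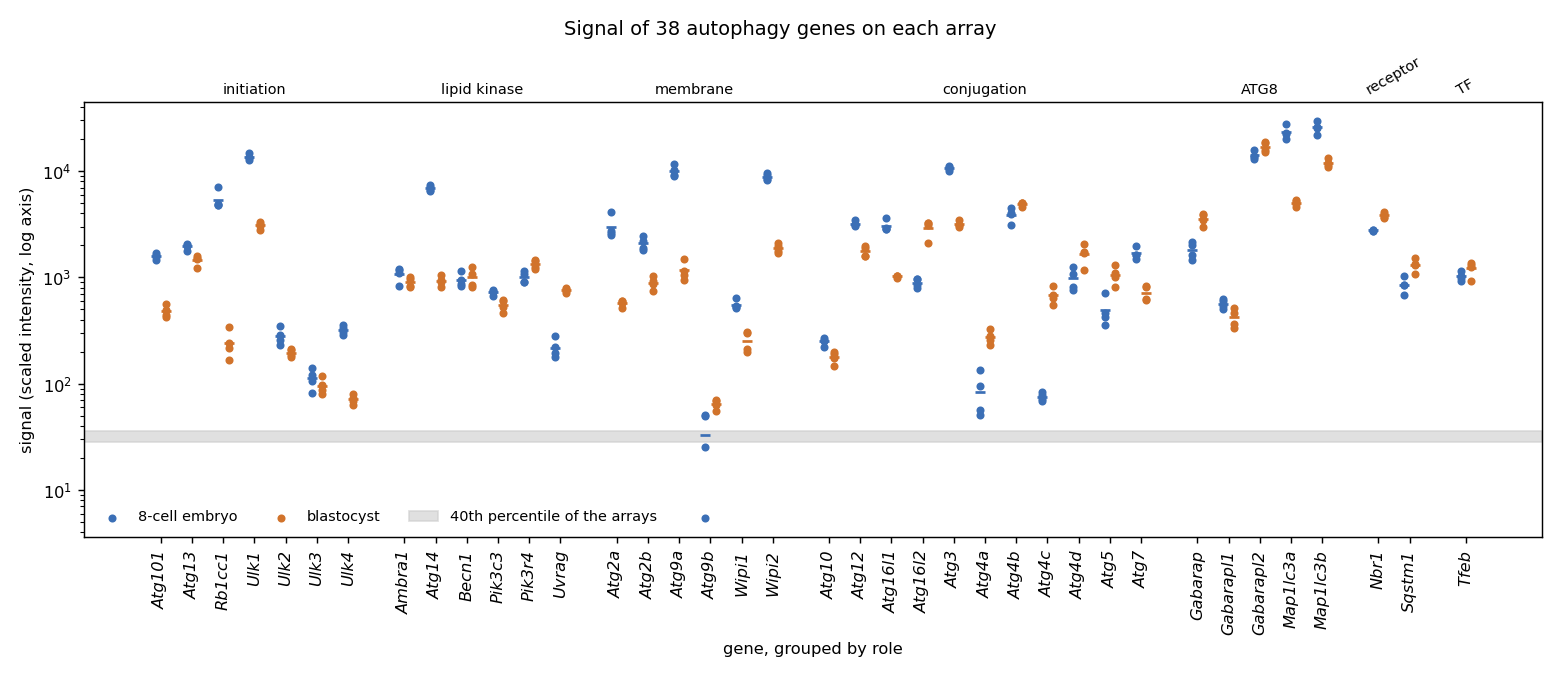
Signal of each autophagy gene on each array, on a log axis, grouped by role; each point is 1 array (4 of 8-cell embryos, 4 of blastocysts), short lines are stage means, and the grey band spans the 40th percentiles of the arrays. The stages are fully separate for 31 of the 38 genes, beside 8871 of the 13276 genes tested. Rb1cc1 runs from 4780 to 7094 at the 8-cell stage and from 166 to 342 in the blastocyst.

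Of the 4 ULK family genes and the 3 genes of their partner proteins, 6 of 7 were lower in the blastocyst and none was higher, with a median difference of -1.69. Of all genes tested 34.2% were lower and 37.5% higher, and these shares are the background for the counts of each role group below. The groups are small, and their counts describe them only. The group includes Ulk3 and Ulk4, which are relatives by sequence and not known parts of the initiation complex. Rb1cc1 encodes FIP200, the large scaffold that holds the kinase complex together. Its signals were 4780, 7094, 4823 and 4876 on the 8-cell arrays and 166, 242, 342 and 217 on the blastocyst arrays. The stages were far apart, and one 8-cell array stood above the other three. The signal fell 21.3-fold (log2 difference -4.415, SE 0.22, adjusted p = 1.57e-07 by limma), and the other 2 probe sets of Rb1cc1 fell by 1.25 and 0.82 log2 units. Averaged over its 3 probe sets, Rb1cc1 differed by -2.16.

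Ulk1, the kinase that starts autophagosome formation, read 12842, 13572, 13148 and 14921 in 8-cell embryos and 3192, 3355, 2791 and 3048 in blastocysts. The spread within each stage was small beside the gap between them, and the fall was 4.38-fold (-2.13, SE 0.11, adjusted p = 2.18e-07 by limma). Its second probe set gave -2.19. Atg101, a subunit that stabilises ATG13, had 8-cell signals of 1473, 1563, 1681 and 1607 and blastocyst signals of 427, 440, 495 and 559, a fall of 3.23-fold without overlap (-1.69, SE 0.12, adjusted p = 1.44e-06).

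Ulk4, a pseudokinase of the family, fell 3.86-fold (-1.95, SE 0.12, adjusted p = 4.96e-07), from 287 to 356 in 8-cell embryos to 63.6 to 80.4 in blastocysts. Its dimmer second probe set did not pass (0.17), and the mean of both gave -0.89. The falls of Atg13, the adaptor between ULK1 and FIP200, and of Ulk2, the closest relative of Ulk1, were smaller. Atg13 lay between 1771 and 2079 and then between 1228 and 1597 (-0.43, SE 0.12, adjusted p = 0.0110), and all 3 of its probe sets fell. Ulk2 lay between 231 and 352 and then between 180 and 213 (-0.48, SE 0.15, adjusted p = 0.0144). With spike-in scaling neither passed (-0.08, adjusted p = 0.811 for Atg13; -0.12, adjusted p = 0.678 for Ulk2). Ulk3, a kinase known from Hedgehog signalling and senescence, overlapped between stages (82.1 to 142, then 79.7 to 119) and did not pass (-0.19, SE 0.17, adjusted p = 0.341).

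The lipid kinase complexes were divided: of 6 genes 2 rose, 2 fell and 2 did not pass, with a median of -0.09. The subunits shared by these complexes moved little, and the subunits that direct the kinase to different steps moved most, in opposite directions. Atg14, which takes the kinase to the site where autophagosomes form, had signals of 6566, 6632, 7120 and 7387 in 8-cell embryos and 910, 1050, 949 and 814 in blastocysts. No array of one stage came near the other, and the fall was 7.35-fold (-2.88, SE 0.12, adjusted p = 6.29e-08 by limma). Uvrag, which competes with ATG14 for the same kinase and serves endosome and autophagosome maturation, had signals of 180, 283, 219 and 192 and then of 742, 788, 721 and 782. Here the blastocyst arrays were all above the 8-cell arrays, a rise of 3.34-fold (1.74, SE 0.15, adjusted p = 4.01e-06).

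Pik3c3, the catalytic subunit, was lower (668 to 760, then 458 to 609; -0.40, SE 0.13, adjusted p = 0.0167 by limma). Its call was lost with median scaling (-0.34, adjusted p = 0.0522) and with spike-in scaling (-0.05, adjusted p = 0.876), and quantile normalization gave -0.64. Pik3r4, its regulatory kinase subunit, was higher (896, 912, 1144 and 1085, then 1187, 1466, 1254 and 1414; 0.40, SE 0.13, adjusted p = 0.0222). The closest arrays of the stages were 1144 and 1187. The call did not hold with quantile normalization (0.24, adjusted p = 0.130), nor without 8-cell replicate 1 (0.34, adjusted p = 0.0610), 8-cell replicate 2 (0.35, 0.0574), blastocyst replicate 2 (0.35, 0.0647) or blastocyst replicate 4 (0.365, 0.0540), and with spike-in scaling the difference was 0.75.

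Becn1, the subunit common to both complexes, read 828, 952, 862 and 1152 and then 820, 842, 1247 and 1087. The stages overlapped fully, and the difference was 0.06 (SE 0.17, adjusted p = 0.759 by limma). Of its 5 probe sets the dimmest was called higher (1.25) and the other 4 did not pass, and the mean of all 5 passed as higher (0.47, adjusted p = 0.0148). Without blastocyst replicate 3 the difference of the chosen probe set was -0.0492. Ambra1, a regulator of BECN1 and ULK1, lay between 825 and 1189 and then between 816 and 1002 (-0.23, SE 0.15, adjusted p = 0.185). It passed as lower without 8-cell replicate 1, the lowest of its stage (-0.35, adjusted p = 0.0393), and with quantile normalization (-0.42, adjusted p = 0.0277), whereas with spike-in scaling the difference was 0.12.

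Of the genes for membrane supply and for readers of the phosphoinositide mark, 5 of 6 were lower and 1 was higher, with a median of -1.72. Atg9a encodes the scramblase whose vesicles seed the autophagosome. Its 8-cell signals were 9287, 8906, 10255 and 11781, and those of the blastocyst 949, 1161, 1051 and 1500. The 4 blastocyst arrays were all far below the lowest 8-cell array, and the fall was 8.60-fold (-3.10, SE 0.165, adjusted p = 2.16e-07 by limma).

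Atg2a, a lipid transfer protein that works with ATG9, read 2486, 2736, 2601 and 4169 and then 520, 600, 594 and 579. One 8-cell array was higher than the others, but the stages did not overlap, and the fall was 5.01-fold (-2.32, SE 0.17, adjusted p = 1.63e-06). Atg2b, its relative, fell 2.31-fold on the probe set used (1827 to 2444, then 745 to 1026; -1.21, SE 0.15, adjusted p = 4.62e-05). Its direction depended on the probe set: a dimmer one was higher (1.59, from a mean of 49.4 to 186), the mean of its 3 probe sets gave 0.02 (adjusted p = 0.951), and 1.59 was also the value when probe sets with IDs ending in _x_at, _s_at or _a_at, which can match more than 1 transcript, were left out.

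Wipi2 binds the phosphoinositide mark and recruits ATG16L1. It read 9194, 8273, 9526 and 8442 and then 1980, 2095, 1691 and 1760, a fall of 4.69-fold (-2.23, SE 0.12, adjusted p = 2.25e-07). A second probe set was nonetheless higher (1.37, from 881 to 2308), another was lower (-0.93), and the mean of the 3 gave -0.60. Wipi1, a related reader, fell 2.14-fold (514 to 635, then 199 to 304; -1.10, SE 0.16, adjusted p = 0.000197), and of its 6 probe sets 5 were lower and 1 did not pass (0.46).

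Atg9b, the relative of Atg9a, was dim. Its signals were 50.4, 25.2, 5.5 and 49.5 in 8-cell embryos and 69.3, 69.5, 62.6 and 55.8 in blastocysts, and 2 of the 4 8-cell arrays were above the 40th percentile. The dimmest 8-cell array weighed most on the value, and without it (8-cell replicate 3) the difference was 0.51 (adjusted p = 0.0411 by limma). The rise on the probe set used (0.85, SE 0.33, adjusted p = 0.0388 by limma) was lost without 8-cell replicate 2 (0.82, adjusted p = 0.0777) and without each of blastocyst replicates 1 to 4 in turn (0.82, 0.82, 0.86 and 0.91, adjusted p = 0.0779, 0.0786, 0.0693 and 0.0553). It was also lost without the filter on dim genes (adjusted p = 0.0536), with the mean of its probe sets (0.46, adjusted p = 0.0567) and with 1 added in place of 16 (1.34, adjusted p = 0.0815), and with 64 added the difference was 0.44.

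All 11 genes of the conjugation machinery passed the test, beside 71.7% of all genes tested, with 6 higher and 5 lower and a median of 0.35. Atg3, Atg7, Atg10, Atg12 and Atg16l1 were lower, and the 4 ATG4 proteases, Atg5 and Atg16l2 were higher. Promoter windows from RefSeq (build GRCm38.p6, 250 bases before to 50 after the start) were found for 32 of the 38 genes, 37 windows in all. They were searched on both strands for the E-box CACGTG and for GTCACGTG, the longer form within the element that TFEB and related factors bind, and the longer form contains the shorter. The 3 stretches shown here are from genes of the conjugation cascade whose window held such letters before the start, with the matched letters in capitals. Atg3 (chr16:45158705-45158793, plus strand) has 2 copies, starting 96 and 73 bases upstream of the start; Atg7 (chr6:114670934-114670999, plus strand) has 1 at 134 bases, and Atg5 (chr10:44268295-44268338, plus strand) has the E-box alone at 14 bases.
Atg3: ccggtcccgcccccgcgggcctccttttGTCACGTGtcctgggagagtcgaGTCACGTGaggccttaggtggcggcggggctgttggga
Atg7: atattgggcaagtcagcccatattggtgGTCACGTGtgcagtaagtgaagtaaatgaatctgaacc
Atg5: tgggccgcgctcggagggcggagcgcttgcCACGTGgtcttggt

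The E-box was in the windows of 4 of the 32 genes (12.5%, beside 8.09% of all 27025 genes in the table), and GTCACGTG in 3 (9.38%, beside 2.55%). Counted by window, the shares were 10.8% and 8.11%, beside 7.15% and 2.25% of 32851 windows. The full palindrome, in which AC follows GTCACGTG, was in 0 of the 32 genes and in 0.37% of all genes. Atg14 was the fourth gene with the E-box, in its longer form across the start. The 3 genes with GTCACGTG, Atg3, Atg7 and Atg14, were lower in the blastocyst, as were 16 of the 32 genes with a window. Atg5, with the E-box alone, was higher on the probe set used, as were 12 of the 32. A link between the letters and the direction was not tested. These matches describe letters in a window and do not show a bound site.

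Atg3, the enzyme that transfers ATG8 proteins to lipid, read 10405, 10856, 11255 and 10024 in 8-cell embryos and 3143, 2973, 3112 and 3495 in blastocysts. The arrays of each stage were close together, and the fall was 3.33-fold (-1.74, SE 0.11, adjusted p = 5.57e-07 by limma), with a second probe set at -1.56. Atg7, which activates both ATG8 proteins and ATG12, read 1490, 1635, 1609 and 1985 and then 622, 607, 819 and 824. It fell 2.32-fold (-1.21, SE 0.15, adjusted p = 6.16e-05), and all 4 of its probe sets were lower (-0.91 to -1.80). Atg10, which passes ATG12 on to ATG5, fell by 0.46 log2 units (220 to 271, then 148 to 200; SE 0.13, adjusted p = 0.00916), a call lost with spike-in scaling (-0.11, adjusted p = 0.726).

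Atg12, the ubiquitin-like partner of ATG5, fell 1.82-fold (3066 to 3450, then 1593 to 1961; -0.87, SE 0.12, adjusted p = 0.000116). With spike-in scaling the difference was -0.51 (adjusted p = 0.0722), and with the mean of its 3 probe sets -0.50. Atg5 read 460, 360, 423 and 711 and then 804, 1098, 1319 and 1006. The stages did not overlap, and the rise was 2.16-fold (1.11, SE 0.22, adjusted p = 0.00139 by limma). Its other probe sets went the other way, with 1 lower (-0.65) and 1 not passing (-0.37). The mean of all 3, with the one used, gave 0.03 (adjusted p = 0.865 by limma). The direction of Atg5 therefore rests on the choice of probe set.

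Atg16l1 and Atg16l2 encode related proteins that bind the ATG12 and ATG5 conjugate, and they moved in opposite directions. Atg16l1, which places the conjugate on the autophagosome membrane, read 2826, 2829, 2908 and 3642 and then 998, 1030, 1023 and 1033, a fall of 2.94-fold (-1.56, SE 0.12, adjusted p = 2.16e-06). Atg16l2 read 965, 848, 797 and 969 and then 3229, 3254, 3128 and 2111, a rise of 3.20-fold (1.68, SE 0.16, adjusted p = 1.10e-05). One blastocyst array of Atg16l2 was lower than the other three and still above every 8-cell array, and its second probe set was also higher (0.70).

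The 4 ATG4 proteases, which trim ATG8 proteins and remove them from lipid, were all called higher, with support that differed between them. Atg4c read 77.9, 68.2, 83.6 and 71.7 in 8-cell embryos and 687, 640, 832 and 544 in blastocysts. This was the largest rise among the 38 genes, 7.50-fold with no overlap (2.91, SE 0.15, adjusted p = 1.59e-07 by limma), and its second probe set was also higher (1.69). Atg4a read 134, 95.1, 56.3 and 50.4 and then 231, 324, 280 and 260, a rise of 3.04-fold (1.61, SE 0.25, adjusted p = 0.000287), again with a second probe set higher (0.80).

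Atg4d read 814, 1080, 764 and 1260 and then 1740, 1167, 2084 and 1708. The lowest blastocyst array lay within the 8-cell range, and the rise was 1.70-fold (0.76, SE 0.22, adjusted p = 0.0101). Averaging its 2 probe sets gave 0.43. Atg4b read 4464, 4010, 3975 and 3112 and then 5034, 4984, 4583 and 5065 (0.35, SE 0.13, adjusted p = 0.0401 by limma). This call was lost without each of 7 arrays in turn: 8-cell replicates 2, 3 and 4 (0.37, 0.36 and 0.245, adjusted p = 0.0574, 0.0590 and 0.0817) and blastocyst replicates 1 to 4 (0.34, 0.34, 0.38 and 0.33, adjusted p = 0.0821, 0.0816, 0.0513 and 0.0797). It was also lost with array weights (0.305, adjusted p = 0.0511) and without the filter (adjusted p = 0.0621). A second probe set of Atg4b was lower (-0.79), and the mean of its 3 probe sets gave -0.29 and did not pass (adjusted p = 0.0849 by limma). With spike-in scaling the difference was 0.70.

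**Figure D2:**
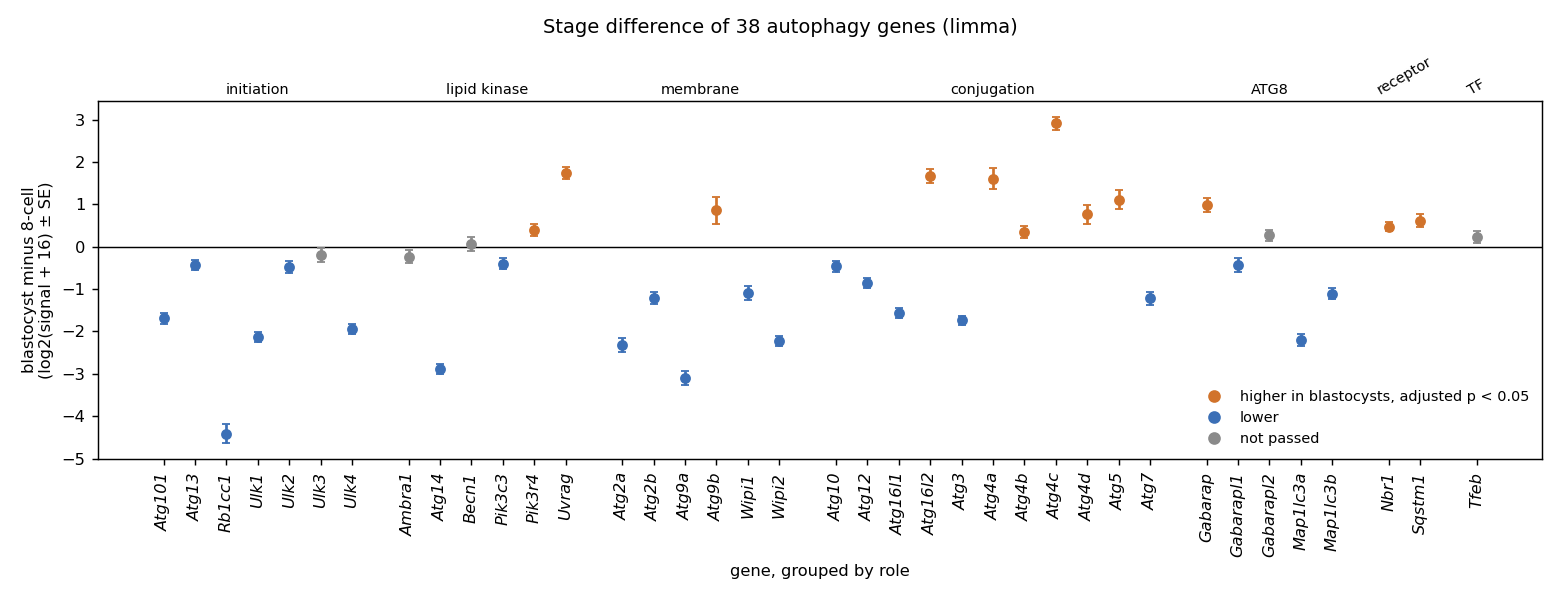
Blastocyst minus 8-cell difference of each autophagy gene in log2(signal + 16) units (vertical axis), with the genes grouped by role; points are the estimates, bars are 1 SE on each side, and colour marks higher, lower or not passed by limma. The initiation and membrane groups lie mostly below 0, with Rb1cc1 at -4.415 and Atg9a at -3.10, and the ATG4 proteases lie above 0, with Atg4c at 2.91.

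Of the 5 ATG8 proteins, the tags that join the membrane and hold cargo, 3 were lower, 1 was higher and 1 did not pass, with a median of -0.43. Both LC3 genes fell. Map1lc3a read 22575, 23062, 27808 and 20142 in 8-cell embryos and 4548, 5386, 5290 and 4948 in blastocysts, a fall of 4.61-fold without overlap (-2.20, SE 0.13, adjusted p = 4.27e-07 by limma), and its other probe set fell by 2.80. Map1lc3b, the form most used to follow autophagy, read 25488, 26188, 29357 and 22043 and then 11017, 13387, 11402 and 11921, a fall of 2.15-fold (-1.11, SE 0.13, adjusted p = 3.49e-05). Of its 4 probe sets 3 were lower (-0.89 to -3.40). The fourth, the one used when IDs ending in _x_at, _s_at or _a_at were left out, gave -0.27 and did not pass (adjusted p = 0.115).

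Gabarap, of the subfamily that binds the ULK complex most closely, was the member that rose. Its signals were 1617, 1447, 2000 and 2160 and then 3978, 3446, 2998 and 3859. All blastocyst arrays were above all 8-cell arrays, by 1.98-fold (0.99, SE 0.16, adjusted p = 0.000378 by limma). Gabarapl1 read 621, 535, 606 and 503 and then 519, 336, 464 and 362, and 1 blastocyst array lay within the 8-cell range (-0.43, SE 0.16, adjusted p = 0.0344). Its second probe set was lower too (-0.69), and quantile normalization gave -0.70. The call was lost without 8-cell replicates 1 and 3 (-0.39 and -0.40, adjusted p = 0.0825 and 0.0759) or blastocyst replicates 2 and 4 (-0.34 and -0.37, adjusted p = 0.0978 and 0.0868), each left out alone. It was also lost with median scaling (-0.37, adjusted p = 0.0738), with spike-in scaling (-0.08, adjusted p = 0.786) and without the filter (adjusted p = 0.0518).

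Gabarapl2, known as GATE-16 and linked to membrane fusion in the Golgi, lay between 13103 and 15891 and then between 15226 and 18680. The stages overlapped, and the difference did not pass (0.27, SE 0.12, adjusted p = 0.0796). It passed as higher with quantile normalization (0.52, adjusted p = 0.000804), spike-in scaling (0.62, adjusted p = 0.0159), the mean of its probe sets (0.31, adjusted p = 0.0299) and an intensity trend with robust estimation (adjusted p = 0.0175).

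Both cargo receptors measured were higher, beside 37.5% of all genes tested, with a median of 0.54. Sqstm1 encodes p62, which links ubiquitinated cargo to LC3 and is itself degraded by autophagy. It read 1021, 686, 852 and 854 in 8-cell embryos and 1296, 1088, 1328 and 1539 in blastocysts, a rise of 1.53-fold without overlap (0.62, SE 0.16, adjusted p = 0.00568 by limma). With spike-in scaling the difference was 0.97, and with the mean of its 2 probe sets, of which the other was too dim to be tested, 0.16 (adjusted p = 0.436). Nbr1, a receptor of similar build, read 2718, 2816, 2809 and 2724 and then 3979, 3683, 4157 and 3585. The 8-cell arrays were very close together, and the rise was 1.39-fold (0.47, SE 0.11, adjusted p = 0.00261). A second probe set of Nbr1 was lower (-0.65), the mean of both gave -0.09 (adjusted p = 0.468), and with spike-in scaling the difference was 0.83.

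Tfeb, the transcription factor that drives lysosome and autophagy genes when it enters the nucleus, read 995, 1024, 934 and 1153 and then 1374, 933, 1250 and 1306. The lowest blastocyst array lay below all 8-cell arrays, and the difference did not pass (0.23, SE 0.15, adjusted p = 0.189 by limma). Without that array, blastocyst replicate 2, it passed as higher (0.35, adjusted p = 0.0408). The arrays measure its transcript and not where the protein is.

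**Figure D3:**
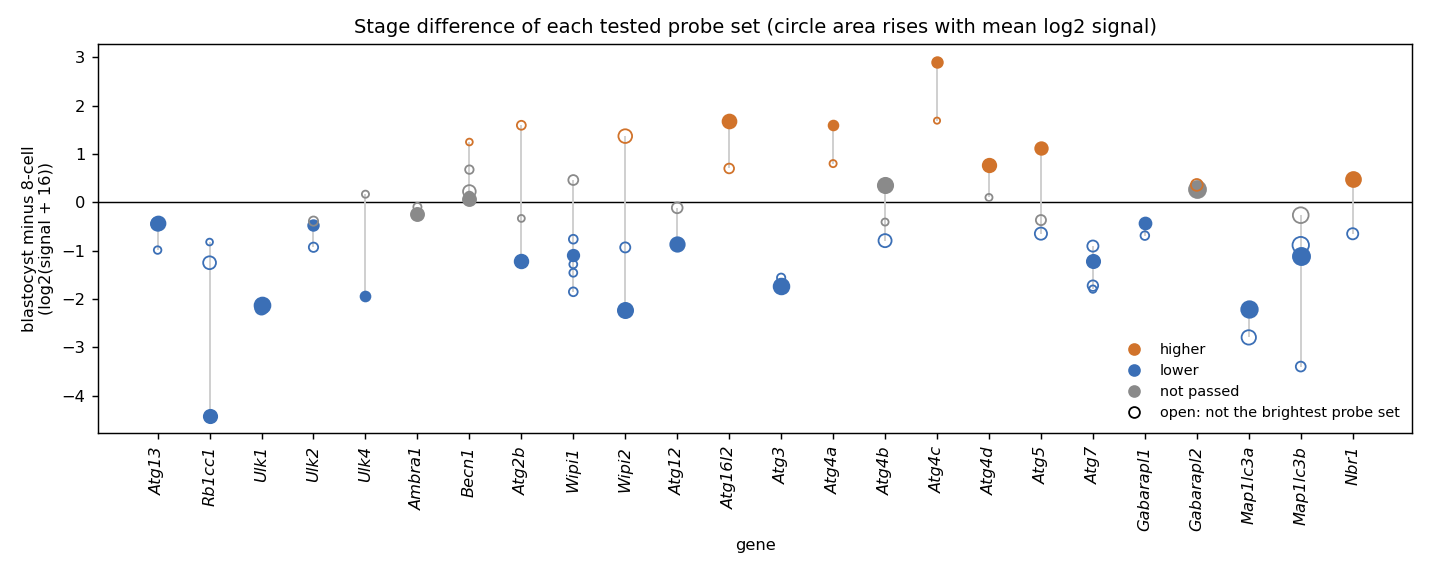
Blastocyst minus 8-cell difference in log2(signal + 16) units for every tested probe set of the 24 autophagy genes with at least 2; filled circles are the brightest probe sets, used for the gene, open circles are the others, circle area rises with mean log2 signal, and colour marks the call in the fit over all probe sets. Probe sets called in both directions are seen for Wipi2 (-2.23 and 1.37), Atg2b (-1.21 and 1.59), Atg5 (1.11 and -0.65) and Nbr1 (0.47 and -0.65).

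Several probe sets were present for 27 of the 38 genes, and 24 had at least 2 that were tested. In a fit over all 28229 probe sets that passed the filter, of which 66.4% were called, the tested probe sets of 10 of these 24 genes were all called in the same direction. Probe sets were called in both directions for 4 genes, Atg2b, Atg5, Nbr1 and Wipi2. In the same fit the brighter probe set of Atg4b did not pass (adjusted p = 0.0551) while its second was lower. In the plot of all tested probe sets, the genes whose probe sets lay furthest apart on one side of 0 were Rb1cc1 and Map1lc3b.

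Related genes were then compared within each array. The log2 ratio of their signals, each with 16 added, was taken on each array, and its shift from the 8-cell embryo to the blastocyst was tested by an exact two-sided permutation test for 12 pairs. In all 12 the ratios of the stages did not overlap, and each had an exact permutation p = 0.0286, the smallest the design allows (adjusted p = 0.0286 over the 12). How often other pairs of genes separate was not computed. Of the 13276 single genes tested, 8871 did not overlap, 35.3% with the blastocyst above and 31.5% with the 8-cell embryo above. These are shares of single genes and give no background for pairs. The 12 pairs were chosen with the differences of their genes known, so the size of a shift restates how far the differences above lie apart. Pairs of the Gabarap genes share members and are not independent. A shift shows that the genes changed unequally, not which of them is more abundant.

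The largest shift was that of Atg14 against Uvrag, the alternative partners of the lipid kinase, at -4.62 log2 units (SD of the ratio 0.30 in 8-cell embryos and 0.16 in blastocysts, n = 4 each). Atg9a against Atg9b shifted by -3.96 (SD 0.76 and 0.38), the widest spread of the 12 pairs at the 8-cell stage. Atg16l1 against Atg16l2 shifted by -3.23 (SD 0.16 and 0.31). In the protease family Atg4c rose against Atg4d by 2.14 (SD 0.43 and 0.32) and Atg4a against Atg4b by 1.26 (SD 0.39 and 0.22). Ulk1 shifted against Ulk2 by -1.66 (SD 0.31 and 0.22), and Atg2a against Atg2b by -1.11 (SD 0.22 and 0.13). For the genes with conflicting probe sets, Atg2b and Atg4b among them, these shifts are those of the probe sets used. With the mean of each gene's probe sets, Atg2a/Atg2b shifted by -2.34 and Atg4a/Atg4b by 1.49 (exact permutation test, adjusted p = 0.0312 for both).

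Among the ATG8 genes, Map1lc3a fell more than Map1lc3b, with a shift of -1.10 and the smallest spread of the 12 pairs at the 8-cell stage (SD 0.05, and 0.09 in blastocysts). Gabarap shifted against Gabarapl1 by 1.42 (SD 0.33 and 0.34) and against Gabarapl2 by 0.72 (SD 0.27 and 0.17), and Gabarapl1 against Gabarapl2 by -0.70 (SD 0.10 and 0.33). Wipi1 shifted against Wipi2 by 1.13 (SD 0.21 and 0.31), but with the mean of each gene's probe sets the shift was -0.40 (exact permutation test, adjusted p = 0.143), so the order within this pair rests on the probe sets.

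**Figure D4:**
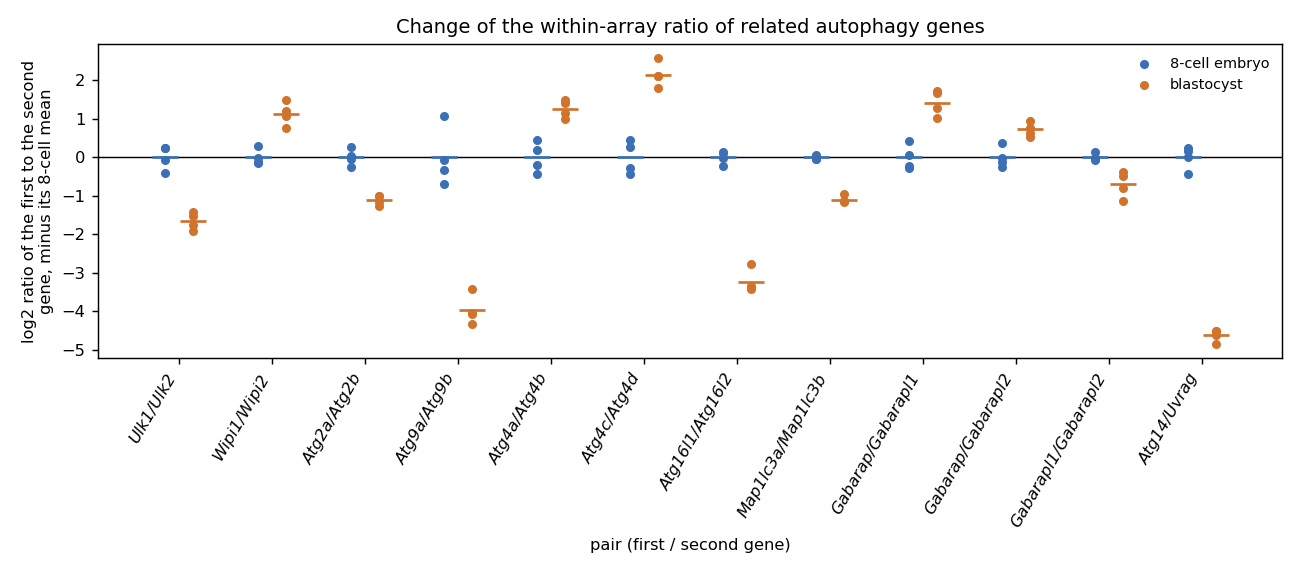
Within-array log2 ratio of signal + 16 for 12 pairs of related autophagy genes, minus the mean of the pair in 8-cell embryos; points are arrays (4 per stage) and lines are stage means. The blastocyst arrays lie furthest below the 8-cell arrays for Atg14/Uvrag (-4.62) and furthest above for Atg4c/Atg4d (2.14).

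Beyond these 38 genes, 92 of 96 listed genes that regulate autophagy or act after it were tested. The test called 40 higher (43.5%, beside 37.5% of all genes) and 33 lower (35.9%, beside 34.2%) and did not call 19, with a median of 0.05. These shares are near those of all genes, and the counts of the 6 lists that follow describe the lists, with the same shares of all genes as background. The genes called higher include Tbc1d7 and Retreg1, which passed the filter through the blastocyst alone. Of the 27 genes of mTORC1 and nutrient sensing, the arm that holds the ULK complex inactive when amino acids are plentiful, 13 were higher, 8 lower and 6 did not pass (median 0.22). Rraga, a GTPase that brings mTORC1 to the lysosome, rose 10.4-fold (131 ± 34.6 to 1484 ± 65.9, SD, n = 4 each; 3.38, SE 0.17, adjusted p = 1.57e-07 by limma). Tbc1d7, a subunit of the TSC complex, read 3.68 ± 1.69 and then 456 ± 39.3. It was under the 40th percentile on all 8-cell arrays and passed the filter through the blastocyst alone, and the size of its difference depended on the settings (2.79 to 6.67 log2 units over the alternatives). Mtor, the kinase itself, rose 1.70-fold (1363 ± 132 to 2325 ± 199; 0.76, SE 0.12, adjusted p = 0.000330), a call lost with the mean of its probe sets (0.225, adjusted p = 0.217). The inhibitory mTORC1 subunits Akt1s1 (-1.60, SE 0.14) and Deptor (-1.37, SE 0.17) fell.

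AMP-activated kinase, which activates ULK1 when energy is low, had 2 higher and 5 lower genes of 7 (median -0.65). Its catalytic subunit Prkaa1 fell 2.24-fold (334 ± 98.0 to 137 ± 15.8; -1.16, SE 0.20, adjusted p = 0.000538 by limma), while the subunits Prkag2 (3.37, SE 0.27) and Prkab2 (1.61, SE 0.16) rose. Stk11, the upstream kinase LKB1, fell on the probe set used (-1.16, SE 0.15), but the mean of its probe sets gave -0.15 (adjusted p = 0.563). Without probe sets ending in _x_at, _s_at or _a_at the difference was 0.86 and did not pass (adjusted p = 0.0822 by limma).

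Of the 5 transcription regulators tested, 3 rose, 1 fell and 1 did not pass (median 0.56). Mitf, a relative of Tfeb, rose 13.8-fold (39.4 ± 25.0 to 699 ± 72.1; 3.79, SE 0.27, adjusted p = 1.41e-06 by limma), and 2 of its 8-cell arrays were above the 40th percentile. Tfe3, another relative, overlapped between stages (0.10, SE 0.12, adjusted p = 0.475). Zkscan3, a repressor of autophagy genes, rose (1.47, SE 0.15), though not without probe sets ending in _x_at, _s_at or _a_at (0.02, adjusted p = 0.905). Foxo1 rose (0.56, SE 0.11) and Foxo3 fell (-0.47, SE 0.14), the latter not with spike-in scaling (-0.12, adjusted p = 0.650).

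Of 17 other membrane and lipid factors 5 rose, 8 fell and 4 did not pass (median -0.25). Ei24 (-1.90, SE 0.12) and Wdr45, a relative of the WIPI readers (-1.24, SE 0.14), fell, and Tecpr1 (1.57, SE 0.29) and Zfyve1 (1.74, SE 0.28) rose, the last not with the mean of its probe sets (0.42, adjusted p = 0.0766). The 15 genes of fusion between autophagosome and lysosome had 9 higher, 2 lower and 4 that did not pass (median 0.51). Rab7, the GTPase of late endosomes, rose 1.45-fold (6037 ± 644 to 8706 ± 440; 0.53, SE 0.12, adjusted p = 0.00245 by limma), a call lost with the mean of its probe sets (0.19, adjusted p = 0.123). Vps33a (1.66, SE 0.15) and the SNARE Ykt6 (1.17, SE 0.14) rose, and the adaptor Plekhm1 fell (-2.45, SE 0.13). Vps18 fell (-0.95, SE 0.14), but not with spike-in scaling (-0.60, adjusted p = 0.0566). Stx17, the autophagosomal SNARE, overlapped between stages (-0.04, SE 0.11, adjusted p = 0.734), and the mean of its probe sets passed as lower (-0.41, adjusted p = 0.00906).

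The 21 other cargo receptors and genes of selective autophagy divided into 8 higher, 9 lower and 4 that did not pass (median -0.14). Rtn3, a receptor for tubules of the endoplasmic reticulum, rose 13.8-fold (182 ± 51.4 to 2642 ± 179; 3.78, SE 0.19, adjusted p = 1.81e-07 by limma). Nfe2l2, the stress factor NRF2 that p62 helps to release from its inhibitor, rose 6.49-fold (2.70, SE 0.18). The mitochondrial receptors Bcl2l13 (-1.45, SE 0.12) and Bnip3 (-0.48, SE 0.13) fell, the call of Bnip3 being lost with quantile normalization (-0.24, adjusted p = 0.0672) and with spike-in scaling (-0.13, adjusted p = 0.614). Stbd1, which binds glycogen, fell (-1.53, SE 0.24). Averaging all probe sets of a gene moved these values, besides that of Tbc1d7, by over 1.5 times without ending the call: Prkag2 to 2.14, Prkab2 to 0.75, Mitf to 1.90, Zkscan3 to 0.69, Foxo3 to -0.82, Tecpr1 to 0.83, Ykt6 to 0.43 and Nfe2l2 to 1.71. With spike-in scaling Foxo1 stood at 0.91 and Rab7 at 0.885.

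**Figure D5:**
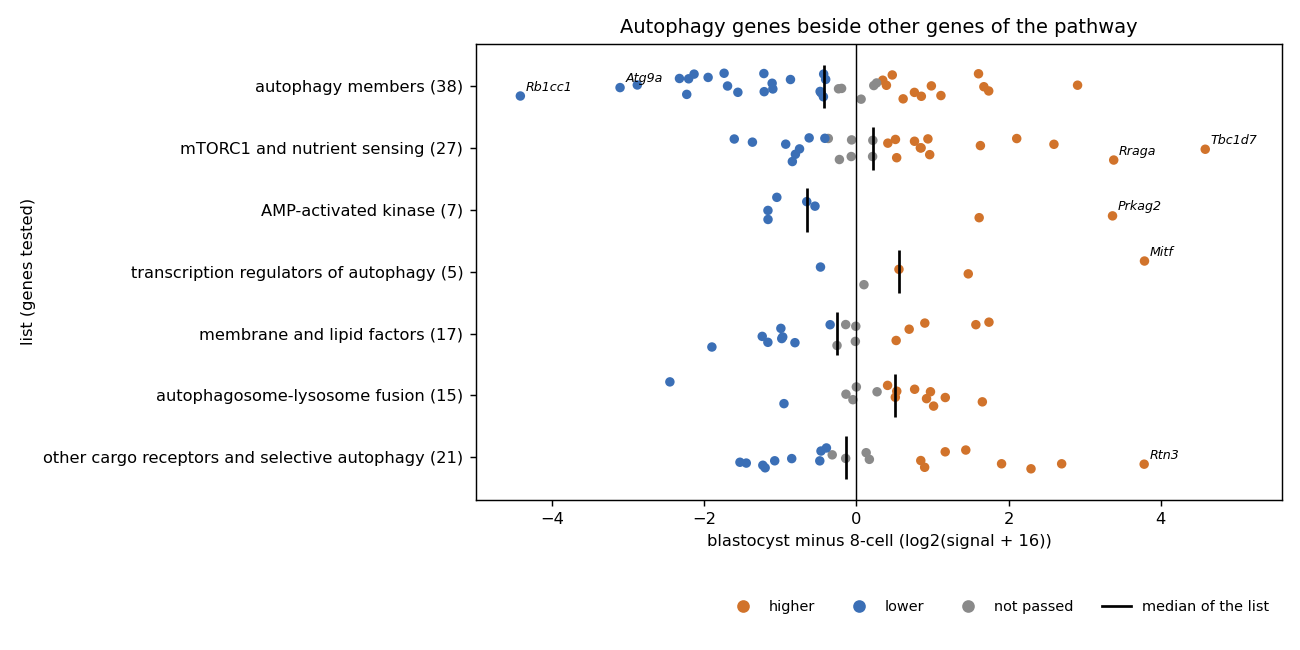
Blastocyst minus 8-cell difference in log2(signal + 16) units for the 38 autophagy genes and 6 lists of other pathway genes; each point is a gene, colour marks the call by limma, and the black line is the median of the list. The median is -0.43 for the autophagy genes and 0.51 for the fusion genes.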

How the data were processed

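The authors deposited linear signal intensities of 45101 probe sets for each of 8 arrays; the software that made it and any genome build are not given in the sources used here. Per the labels' protocols, total RNA was amplified with a small-sample assay and labelled with biotin. The deposited values had a mean of 500 on each array after removal of the outer 2%, and no arrays were identical. Platform annotation gave 1 symbol to 34945 probe sets and several to 932, left 9160 unnamed, and 64 were controls.

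Values became log2(signal + 16). Of a gene's probe sets the one with the highest mean was used, and the 13276 genes whose signal exceeded the array's 40th percentile on at least 4 arrays were tested with limma 3.58.1 in R 4.3.3 (lmFit, eBayes, no covariates), with Benjamini-Hochberg adjustment over all of them and a threshold of 0.05. Pairs and array quality were compared by exact permutation tests. Named are all members and, of each pathway list, the called genes with the 2 highest and 2 lowest differences. Mtor, Prkaa1, Tfe3, Bnip3, Rab7 and Stx17 are named as well. Retreg1 is named only for how it passed the filter and is not counted among the named pathway genes below. The members and lists were chosen with earlier results of these data known. Listed pathway genes for which no probe set carried the symbol alone were not analysed here. Promoters are from RefSeq (GRCm38.p6).

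Alternatives were 3 other scalings (quantile, median, spike-in), no filter or the 60th percentile, averaging all probe sets of a gene, dropping those with IDs ending in _x_at, _s_at or _a_at, array weights, limma's trend and robust options, a replicate block, adding 1 or 64 instead of 16, and dropping each array in turn. The scripts were tested on simulated data. Plots used matplotlib 3.10.9 (Python 3.11.15). The number of arrays limits the precision.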

Additional observations from a re-analysis of the deposited data

Results flagged for a closer look

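In 4 of 76 groups (38 genes at 2 stages), 1 array stood apart from the other 3 of its stage by Dixon's test at the 95% level, which chance alone flags in about 1 in 20 groups. Rb1cc1 read 7094 on 8-cell replicate 2, above the other 8-cell arrays at 4780 to 4876. Atg16l1 read 3642 on 8-cell replicate 4, above the others at 2826 to 2908. Atg16l2 read 2111 on blastocyst replicate 4, below the others at 3128 to 3254. Atg4b read 4583 on blastocyst replicate 3, below the others at 4984 to 5065.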

How the results depend on the processing

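Of the 38 autophagy genes 19 kept their direction and their side of the threshold in every alternative run, and of 29 named pathway genes 19 did. Over the alternatives, 9 to 13 autophagy genes were higher and 15 to 22 lower. With spike-in scaling, 17 of the other pathway genes and 2806 of all genes were lower, against 33 and 4541. Every difference was then 0.354 higher, and the median SE over genes was 0.254, against 0.173. Differences changed sign with spike-in scaling for Ulk3 (0.16), Ambra1 (0.12) and Stx17 (0.31), and with median scaling for Stx17 (0.0146). With quantile normalization they changed sign for Becn1 (-0.13) and Tfe3 (-0.10). With the mean of probe sets they did so for Ambra1 (0.012), Atg2b (0.0156), Atg4b (-0.29), Nbr1 (-0.0899) and the pair Wipi1/Wipi2 (-0.40), and without probe sets ending in _x_at, _s_at or _a_at for Atg2b (1.59) and Stk11 (0.86). Leaving out 1 array at a time gave Becn1 -0.0492 to 0.159. With 1 array left out, Gabarap/Gabarapl2 and Gabarapl1/Gabarapl2 could reach an exact permutation adjusted p of 0.0571. Deviations from the stage means were not shared by same-numbered arrays (correlations -0.0244 to -0.0351), which cannot show whether those arrays were handled as pairs. With a replicate block 11 autophagy genes were higher and 21 lower, Atg4b alone being lost (adjusted p = 0.0756 by limma). Causes of these changes were not tested beyond what the settings themselves change. Signal over background limits Atg9b and the dim second probe sets.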
